A study of Mus musculus with 2 samples.

Results

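The collagen genes were examined in RNA sequencing of mouse prostate luminal epithelial cells that had kept or lost a fluorescent label. Members were all rows of the deposited table whose gene symbol is Col, a number, the letter a and a number, without Col17a1, a hemidesmosome gene of basal cells. This gave 40 collagen genes out of 18724 rows, and 3 collagen genes of the annotation (Col6a6, Col9a1 and Col10a1) had no row. The members fell into 8 classes, with 11 fibrillar, 8 basement membrane, 5 beaded, 3 transmembrane, 8 FACIT (collagens that sit on the surface of fibrils), 2 short-chain network, 1 anchoring fibril and 2 other genes. Cells of normal prostate from mice of 18 weeks were sorted into a GFP-positive population of label-retaining cells and a GFP-negative population of non-retaining cells, and the label is a histone 2B-GFP fusion by the title of the study. A histone-bound label is diluted at division, so cells that divide rarely keep it longer. Each population gave 1 library, so there was no replicate and no test, and all values compare these libraries. For the strain, the promoter of the label, the surface markers of the sort and any pooling of mice, nothing is given in the sources used here.

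Collagens are proteins of triple helices, made from chains that are modified, folded and exported through the endoplasmic reticulum and then assembled outside the cell. Fibrillar collagens form the fibres of connective tissue and are made mainly by fibroblasts, whereas type IV collagen forms the sheet under an epithelium and comes from both epithelial and stromal cells. Beaded (type VI) collagen links fibres to cells, and transmembrane collagens stay anchored in the plasma membrane of the cell that makes them. In the prostate, basal cells rest on the basement membrane, with luminal cells above them and smooth muscle and fibroblasts outside.

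The non-retaining library had 3.33 times the summed collagen level of the label-retaining library, and the classes went different ways. Of 8 basement membrane collagens 5 were called lower in label-retaining cells, at a class median of -3.29 on the log2 scale. Both measured transmembrane genes, Col23a1 and Col13a1, were called lower, with Col13a1 measured only through its non-retaining reads. Of 10 measured fibrillar collagens 5 were called higher and 1 lower, with a median of 1.01. Over all measured genes, 14.5% were called higher and 19.4% lower. Of 5 beaded collagens Col6a3 was called higher, and the rare chains Col6a4 and Col6a5 were called lower. The basement membrane gene Col4a6 was called higher and was the collagen of highest level in the label-retaining library.

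The 3 gene pairs of type IV collagen each lie head to head, with their starts side by side on opposite strands, so the sequence between the starts is shown first, to set beside the values of both partners. Coordinates are on GRCm38 (mm10) and the bases were taken from RefSeq promoter windows of GRCm38.p6, found for 31 of the 40 collagens. Capitals mark matches, on either strand, to the CCAAT box, to the GC box GGGCGG or to the TATA box TATAAA. Col4a4 and Col4a3 are separated by 71 bases (chr1:82586850-82586920), written on the strand of Col4a4.
Col4a4: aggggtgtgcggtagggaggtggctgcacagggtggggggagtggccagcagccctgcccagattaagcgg
The first exons of Col4a1 and Col4a2 overlap by 22 bases (chr8:11312805-11312826), written on the strand of Col4a2.
Col4a1/Col4a2: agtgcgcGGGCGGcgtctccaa
The starts of Col4a6 and Col4a5 are 1308 bases apart in GENCODE and 1342 in RefSeq. In the 250 bases before the RefSeq start, Col4a5 has CCAAT and GGGCGG matches, and Col4a6 has a GGGCGG match. Those of Col4a5 do not lie within the stretch shown here. The 120 bases before each GENCODE start are given (chrX:141474077-141474196, minus strand, and chrX:141475265-141475384, plus strand).
Col4a6: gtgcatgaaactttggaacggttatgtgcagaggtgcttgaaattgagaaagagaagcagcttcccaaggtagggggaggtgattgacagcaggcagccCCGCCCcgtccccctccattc
Col4a5: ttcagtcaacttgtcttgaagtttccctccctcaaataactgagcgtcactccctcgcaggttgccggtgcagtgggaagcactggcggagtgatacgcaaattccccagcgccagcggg

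Values are read counts of a gene in each library, and differences are log2 ratios of normalised counts, label-retaining over non-retaining, with a 95% interval that covers counting error only. Genes averaging at least 10 normalised counts over both libraries count as measured. The calls higher and lower need, beside that, a ratio of at least 2-fold and an interval that leaves out equality. The libraries held 50689229 label-retaining and 48334265 non-retaining reads. Of 17183 measured genes, 14.5% were called higher and 19.4% lower in the label-retaining library. The median log2 ratio over these genes was -0.0052. Of the 40 collagens, 37 were measured, of which 10 were called higher, 15 lower and 12 neither, and their median was -0.44. Col13a1, Col24a1 and Col6a4 were measured only through their non-retaining reads, and the 34 members with at least 10 normalised counts in both libraries had a median of -0.00033. Col2a1, Col19a1 and Col25a1 were not measured, with 1 to 4 label-retaining and 16 or 17 non-retaining reads. A bulk library cannot tell fewer cells of a type from less RNA per cell.

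**Figure D1:**
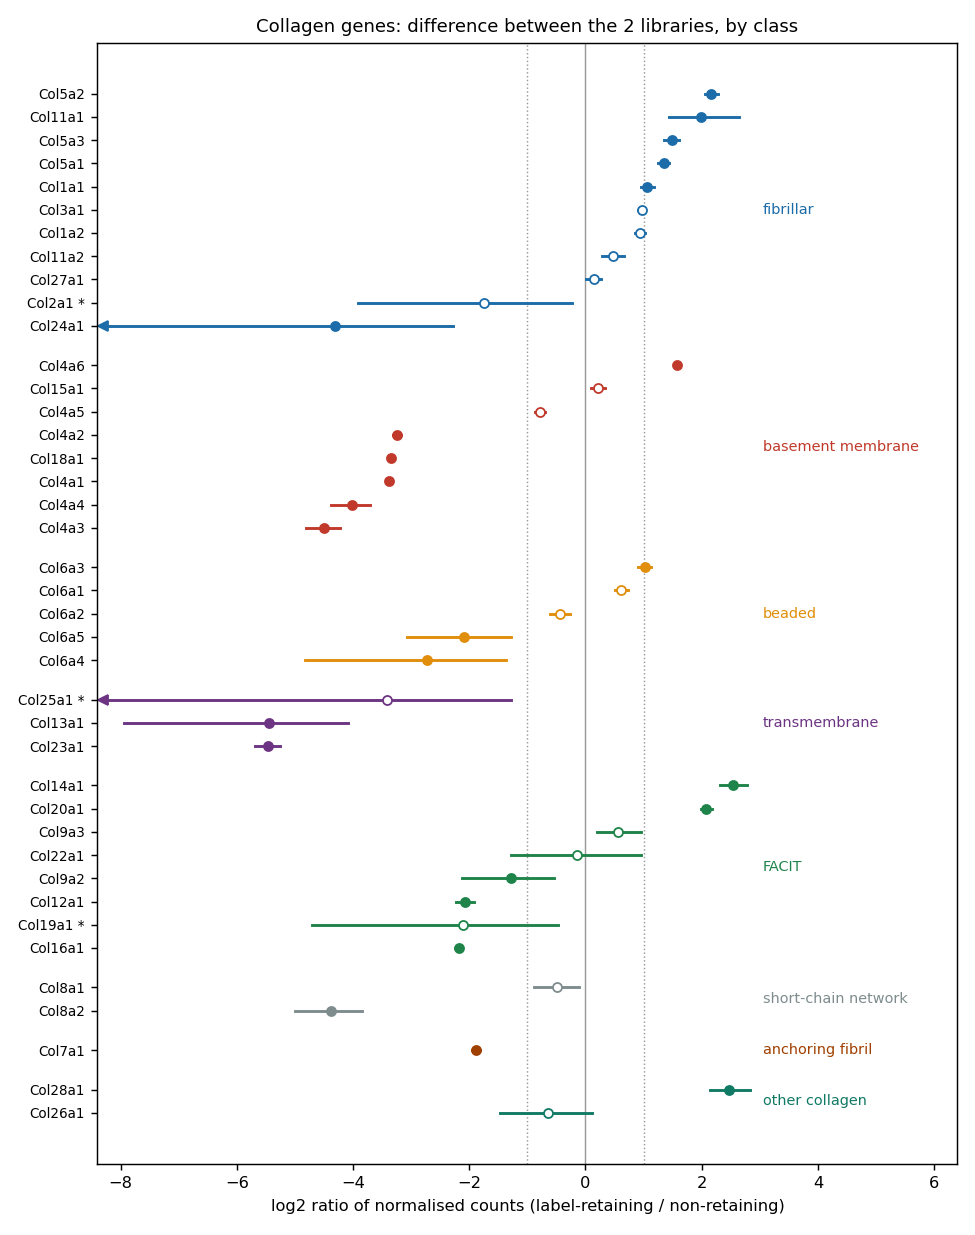
Log2 ratio of normalised counts (label-retaining over non-retaining, horizontal axis) for each of the 40 collagen genes, grouped by class. Points are ratios and bars are 95% counting intervals (arrowheads mark bars that run off the axis), filled points were called higher or lower, open points were not, and an asterisk marks the 3 genes that were not measured. Of 10 measured fibrillar genes 9 lie to the right of equality, up to 2.16 for Col5a2, and 5 of 8 basement membrane genes lie between -4.50 and -3.24.

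Collagens of the basement membrane made up most of the summed collagen level of the non-retaining library. Of 8 genes, 5 were called lower, 1 higher (Col4a6) and 2 neither, and each had at least 10 normalised counts in both libraries. Their summed level, in reads per kilobase of exon per 1000000 reads of the table, was 90.2 for label-retaining and 466 for non-retaining cells. That was 49.6% of the summed collagen level in the former and 76.9% in the latter.

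Col4a1 (ENSMUSG00000031502.9, chromosome 8, 11198423 to 11312826, minus strand) encodes the common chain of type IV collagen and had 5185 label-retaining reads against 59159 non-retaining reads. Its log2 ratio was -3.38 (interval -3.42 to -3.34), that is 10.4-fold lower. Its partner Col4a2, whose chain joins that of Col4a1 in 1 trimer, had 2263 reads against 23485, at -3.24 (-3.30 to -3.18). The proportion of the pair was close in the libraries, though the intervals of the genes did not overlap. Col4a1 stood at 2.03 times the level of Col4a2 per length in label-retaining cells and 2.23 times in non-retaining cells.

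Col4a3 and Col4a4 encode chains of the specialised type IV network known from kidney and lung, which also takes a Col4a5 chain. Col4a3 (ENSMUSG00000079465.7, chromosome 1, 82586921 to 82722059, plus strand) had 100 reads against 2495, a log2 ratio of -4.50 (-4.81 to -4.22). Col4a4 (ENSMUSG00000067158.9, chromosome 1, 82448423 to 82586849, minus strand) had 82 reads against 1474, at -4.03 (-4.37 to -3.71). Both were far lower in the label-retaining library, and their intervals overlapped. Of the exon bases of Col4a3, 5.65% lie opposite exons of a noncoding gene, C430014B12Rik, and the strand setting of the counting is not known.

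The third pair did not move together. Col4a6 (ENSMUSG00000031273.15, chromosome X, 141165403 to 141474076, minus strand), whose chain forms a trimer with Col4a5 in some epithelial and smooth muscle basement membranes, had 18348 reads against 6736. Its log2 ratio was 1.58 (1.54 to 1.62). Col4a5 had 1432 reads against 2704, at -0.78 (-0.88 to -0.69). The log2 ratios of the partners differed by 2.36, against 0.14 for Col4a1 and Col4a2 and 0.47 for Col4a3 and Col4a4. Per length, Col4a6 stood at 10.8 times the level of Col4a5 in the label-retaining library and 2.1 times in the non-retaining library. No exon of either gene overlaps an exon of another annotated gene.

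The order of the type IV chains was therefore not the same in the libraries. In the non-retaining library Col4a1 had 9.38 times the level of Col4a6 per length, whereas in the label-retaining library Col4a6 had 3.31 times the level of Col4a1. Col4a6 alone held 24.95% of the summed collagen level in the label-retaining library and 2.89% in the non-retaining library.

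The remaining basement membrane genes encode multiplexins, collagens that carry sugar side chains and release fragments such as endostatin. Col18a1 (ENSMUSG00000001435.13, chromosome 10, 77052178 to 77166548, minus strand), the source of endostatin, had 5816 reads against 64879, at -3.35 (-3.39 to -3.31). It was the collagen of highest level in the non-retaining library, at 191 reads per kilobase per 1000000 reads, and ranked 2 in the label-retaining library at 16.3. Col15a1, its relative found in vascular and muscle basement membranes, had 1115 reads against 1051 and a log2 ratio of 0.22 (0.10 to 0.34).

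**Figure D2:**
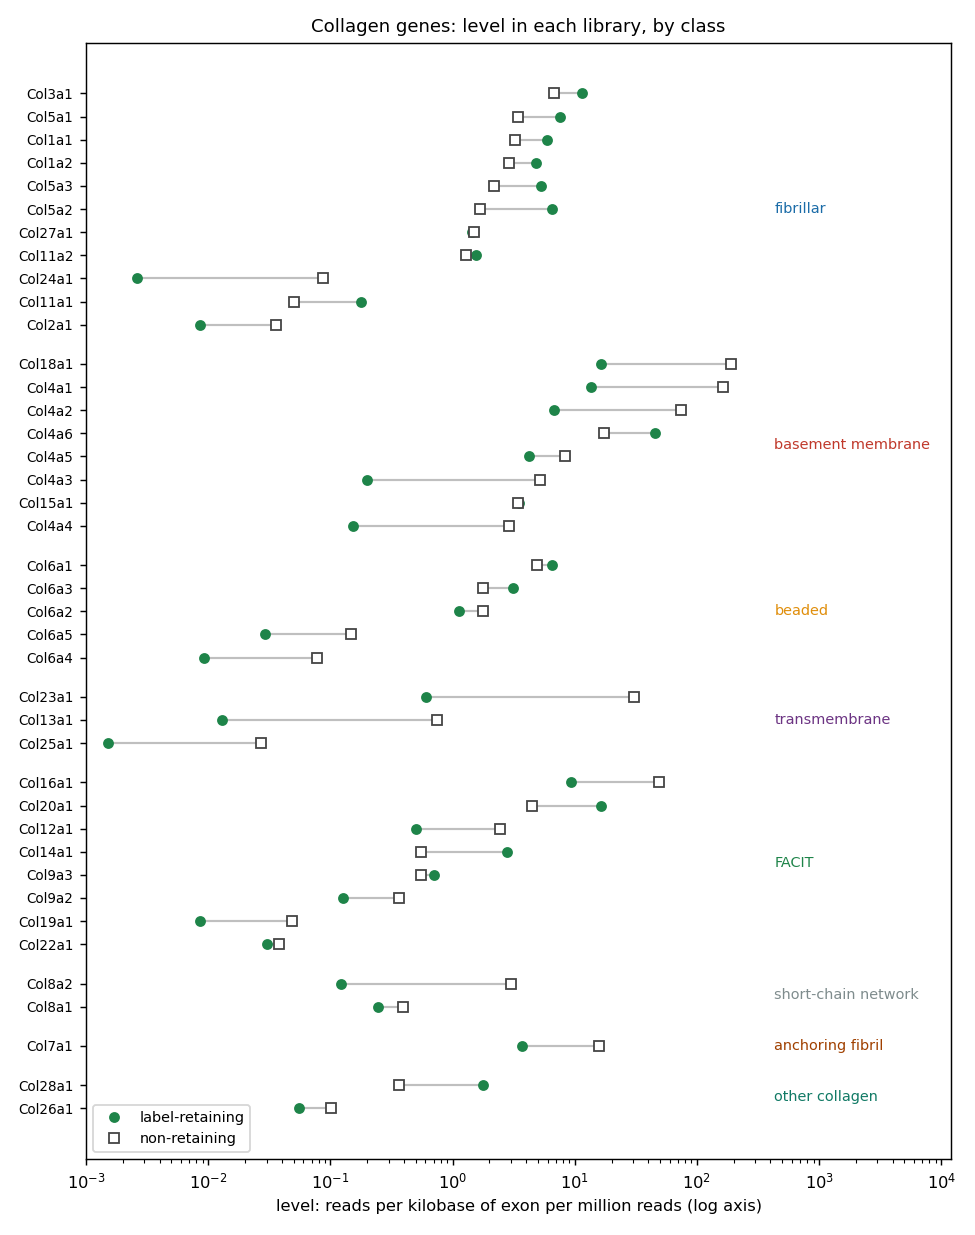
Level of each collagen gene in reads per kilobase of exon per 1000000 reads (log axis), in the label-retaining (filled circles) and non-retaining (open squares) library, grouped by class and joined by a line. Col18a1 and Col4a1 have the highest non-retaining levels, 191 and 164, and Col4a6 the highest label-retaining level, 45.4.

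The fibrillar class had a median on the other side of equality. Of 11 genes 10 were measured, of which 5 were called higher, 1 lower (Col24a1) and 4 neither, and the 9 with at least 10 normalised counts in both libraries all had ratios above 0, with a median of 1.06. The class summed to a level of 44.7 in label-retaining and 23.1 in non-retaining cells, or 24.5% and 3.81% of the summed collagen level.

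The type V genes stood highest among the common fibrillar members. Type V collagen lies within type I fibres and governs their width. Col5a2 (ENSMUSG00000026042.15, chromosome 1, 45374321 to 45503282, minus strand) had 3173 label-retaining reads against 778 non-retaining reads, at 2.16 (2.05 to 2.28). Col5a3 had 1831 reads against 718, at 1.48 (1.36 to 1.61), and Col5a1 had 3248 against 1401, at 1.35 (1.26 to 1.44). All type V genes were called higher, and the interval of Col5a2 lay above those of Col5a1 and Col5a3.

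Type I and type III collagen, the main fibre proteins of connective tissue, lay around the 2-fold threshold. Col1a1 (ENSMUSG00000001506.10, chromosome 11, 94936224 to 94953042, plus strand) had 1962 reads against 1030, at 1.06 (0.95 to 1.17), just inside it. Col3a1 (ENSMUSG00000026043.17, chromosome 1, 45311538 to 45349706, plus strand) had 5669 reads against 3181, at 0.97 (0.90 to 1.03), just outside. Col1a2, the partner chain of Col1a1, had 3041 against 1736, at 0.94 (0.86 to 1.03). The call separates these genes although their ratios are close and their intervals overlap, and the differences between them were not tested. Col3a1 had the highest level per length of the class in both libraries, at 11.4 and 6.70.

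Type XI collagen is related to type V and best known from cartilage. Col11a1 had 114 reads against 31, at 1.99 (1.43 to 2.63), and Col11a2, whose chain joins that of Col11a1 in the same molecule, had 539 against 427, at 0.47 (0.28 to 0.66). Col27a1, a fibrillar collagen of developing cartilage, had 951 against 946, at 0.14 (0.0098 to 0.27). Col24a1, another fibrillar gene of low level, had 1 read against 32, at -4.31 (-10.21 to -2.28), and the cartilage gene Col2a1 had 4 against 16.

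Of the fibrillar promoters, that of Col3a1 was AT-rich, at 35.2% G and C over 250 bases against a class median of 60.8%. Col1a1, Col2a1 and Col5a2 had no promoter window. The 120 bases before the start are given for Col3a1, close to the threshold, and for Col5a1 and Col5a3, both GC-rich and called higher (chr1:45311418-45311537, plus strand, chr2:27886305-27886424, plus strand, and chr9:20815068-20815187, minus strand).
Col3a1: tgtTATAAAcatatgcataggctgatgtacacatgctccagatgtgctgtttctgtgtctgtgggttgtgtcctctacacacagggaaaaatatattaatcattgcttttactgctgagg
Col5a1: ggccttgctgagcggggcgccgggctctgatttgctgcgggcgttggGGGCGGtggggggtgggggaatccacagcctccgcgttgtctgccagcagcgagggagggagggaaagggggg
Col5a3: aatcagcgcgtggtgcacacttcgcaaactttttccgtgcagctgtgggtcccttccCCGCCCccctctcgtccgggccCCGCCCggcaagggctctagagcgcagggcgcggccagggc
These stretches hold 40.0%, 72.5% and 70.0% G and C. Over the 250 bases before each start, GGGCGG on either strand was found in 6 of 8 fibrillar and 4 of 8 basement membrane windows (some genes have 2 windows), and in 32.7% of the 32851 windows of all genes. Over all collagens it was found in 21 of 33 windows, whose median content of G and C was 59.6%, against 52.4% for all windows. CCAAT was found in 3 fibrillar and 4 basement membrane windows and in 33.8% of all windows, and TATAAA in 2 fibrillar and 0 basement membrane windows and in 12.4% of all windows. Adjoining matches of different motifs can share letters, since a CCAAT box on the other strand ends in the letters with which a GC box begins. A match describes the letters only.

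Beaded collagens had ratios on both sides of equality. Col6a1, Col6a2 and Col6a3 encode the chains of the usual type VI molecule. Col6a3 had 1908 reads against 1031, at 1.02 (0.91 to 1.13), and was called higher with its interval on both sides of 2-fold. Col6a1 had 1445 against 1032, at 0.62 (0.50 to 0.74), and Col6a2 had 480 against 716, at -0.44 (-0.61 to -0.27). The intervals of Col6a1 and Col6a2, neighbours on chromosome 10 in the same direction, did not overlap. The rare chains were lower, with Col6a4 at 4 reads against 32 (-2.72, -4.83 to -1.37) and Col6a5 at 14 against 67 (-2.09, -3.07 to -1.28). Col6a4 and Col6a5 are paralogs that lie side by side, and whether the counting split reads between them was not tested. The class median was -0.44 over 5 measured genes and 0.62 over the 3 common chains, which pass a minimum of 50 normalised counts.

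The transmembrane genes included Col23a1 and Col13a1, the collagens with the lowest log2 ratios. Col23a1 (ENSMUSG00000063564.12, chromosome 11, 51289920 to 51583918, plus strand), a membrane collagen that can be shed from the cell surface, had 176 label-retaining reads against 8534 non-retaining reads. Its log2 ratio was -5.46 (-5.69 to -5.25), 44.1-fold lower, and its level of 30.8 in the non-retaining library ranked 5 among collagens. Col13a1, found at cell adhesions and the neuromuscular junction, had 3 reads against 166, at -5.44 (-7.95 to -4.08). Col25a1, expressed in neurons, had 1 read against 17, at -3.41 (-9.34 to -1.28), and was not measured. Col17a1, a transmembrane collagen of basal cells that was left out of the family here, stood at -4.78 (-4.86 to -4.70).

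FACIT collagens were found on both sides of equality, and they include Col14a1, the collagen with the highest log2 ratio. Col14a1, which binds type I fibrils, had 986 reads against 186, at 2.54 (2.31 to 2.77). Col20a1 had 4249 reads against 1104, at 2.08 (1.98 to 2.17). Its label-retaining level of 16.3 reads per kilobase of exon per 1000000 reads ranked 3 among collagens. By length of the coding transcript, however, Col20a1 was at 18.7 in that library, below Col3a1 at 20.1. Col16a1, which occurs near basement membranes, had 3187 against 15874, at -2.18 (-2.24 to -2.13), and Col12a1, a partner of type I fibrils, had 387 against 1787, at -2.07 (-2.24 to -1.91). Of the type IX genes, Col9a2 had 20 reads against 54, at -1.28 (-2.12 to -0.54), and Col9a3 had 138 against 102, at 0.57 (0.19 to 0.95). For Col9a3, 6.07% of the exon bases lie opposite exons of the coding gene Tcfl5, and the strand setting of the counting is not known. Col22a1 had 14 against 17, and its interval of -1.28 to 0.96 held equality. Col19a1 was not measured, with 3 against 16.

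The short-chain, anchoring and other collagens added single genes. Col8a2, of the network collagen known from the cornea and vessels, had 28 reads against 648, at -4.37 (-5.00 to -3.85), whereas its partner Col8a1 had 97 against 150, at -0.49 (-0.88 to -0.12). Per length, Col8a1 had 1.99 times the level of Col8a2 in the label-retaining library and Col8a2 had 7.54 times that of Col8a1 in the non-retaining library. Col7a1, the anchoring fibril that fastens basement membranes to the tissue below, had 1917 against 7782, at -1.89 (-1.96 to -1.82). Col28a1, known from glial cells of peripheral nerve, had 442 against 87, at 2.47 (2.14 to 2.83), and Col26a1 had 23 against 40, at -0.65 (-1.47 to 0.11).

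**Figure D3:**
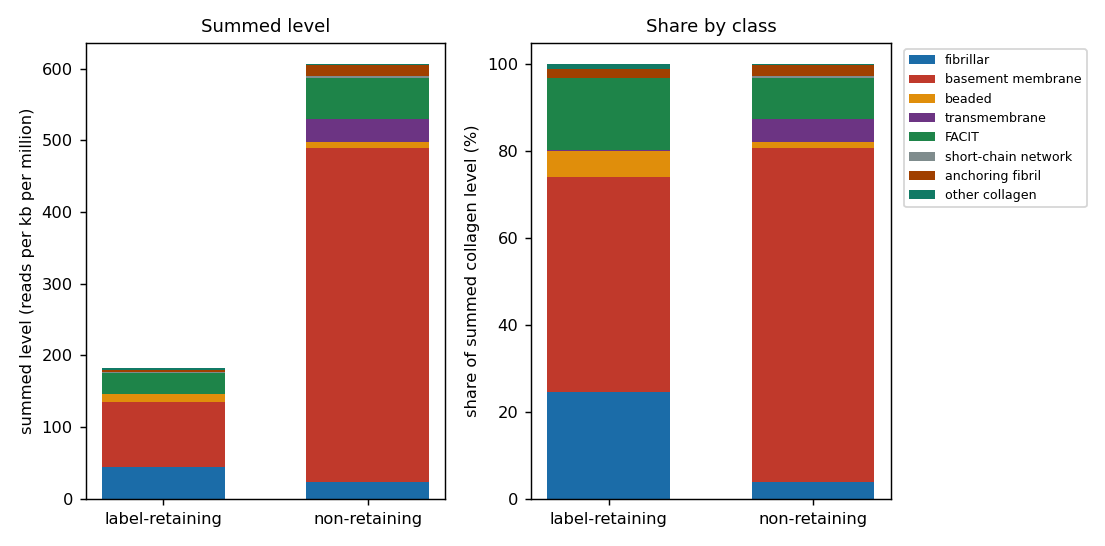
Summed level of the collagen genes of each class in the 2 libraries, as reads per kilobase per 1000000 reads (left) and as percent of the summed collagen level (right). The sum is 182 for label-retaining and 606 for non-retaining cells, and the fibrillar share is 24.5% against 3.81%.

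As a share of all reads, collagens held 0.139% of label-retaining reads (exact Clopper-Pearson 95% interval 0.138% to 0.140%) and 0.438% of non-retaining reads (0.436% to 0.440%). Basement membrane collagens held 0.0677% (0.0670% to 0.0685%) against 0.335% (0.334% to 0.337%). Fibrillar collagens held 0.0405% (0.0400% to 0.0411%) against 0.0213% (0.0209% to 0.0217%).

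The scaling of the libraries moves every ratio alike, so it decides the calls of genes near the threshold. Scaling by total reads left 8 collagens called higher and 15 lower, beside 11.3% and 23.1% of all measured genes, and Col1a1 and Col6a3 were then not called. Scaling on the luminal keratins Krt8 and Krt18 lowered all ratios by 0.76, since both keratins have more label-retaining reads. Then 5 collagens were called higher (Col11a1, Col14a1, Col20a1, Col28a1 and Col5a2) and 19 lower, beside 5.59% and 39.9% of all measured genes. The fibrillar median was 0.25, with 2 genes called higher, 1 lower and 7 of 10 ratios above 0, and Col27a1 and Col11a2 turned below 0. The basement membrane median was -4.06 with 0 higher and 6 lower. The 10 higher and 15 lower collagens kept their direction under all scalings tried, which could not have come out otherwise. A call needs at least 2-fold, more than the largest shift, 0.76 on the log2 scale. At a 4-fold threshold 4 collagens were called higher and 13 lower, beside 4.32% and 9.64% of measured genes, and at 1.5-fold 13 and 16, beside 24.2% and 26.8%.

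Genes that make and process collagen were next compared, in order of their steps. Their calls are to be read beside the 14.5% called higher and 19.4% called lower over all measured genes. For the enzymes that hydroxylate and glycosylate procollagen, the calls over 15 measured genes were 4 higher (26.7%) and 3 lower, at a median of -0.0035. The share called lower, 20.0%, was near that over all genes. P4hb, the shared beta subunit of prolyl hydroxylase and a general disulfide isomerase, was the most abundant by reads, with 82532 against 38683, at 1.23 (1.21 to 1.24). P4ha3, a catalytic subunit, had 111 against 13, at 3.17 (2.39 to 4.18), and P4ha2, another, was at 1.55 (1.43 to 1.68). The lower members were Colgalt2, a collagen galactosyltransferase, at -3.25 (-4.13 to -2.55), Crtap, of the prolyl 3-hydroxylase complex, at -1.38 (-1.62 to -1.15), and the lysyl hydroxylase gene Plod2 at -1.23 (-1.37 to -1.09).

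Among folding and export genes, 7 of 14 were called higher and 2 lower, at a median of 0.67 that turned to -0.09 under the keratin scaling. The higher members include genes that serve secretion at large, such as Sec24d, a COPII coat subunit, at 1.92 (1.87 to 1.97). Others were the disulfide isomerase gene Pdia6 at 1.75 (1.73 to 1.77) and Sec23a at 1.65 (1.56 to 1.73). Mia3 and Mia2, listed for procollagen export, were also called higher, at 1.02 (0.98 to 1.06) and 1.39 (1.34 to 1.43). The chaperone gene Hsp90b1 had the most reads of the list, 68147 against 29731, at 1.33 (1.31 to 1.35). Both lower members are known for their action on collagen, so genes listed for collagen were called in both directions. Serpinh1, which encodes the collagen chaperone HSP47, had 1136 reads against 6266, at -2.33 (-2.42 to -2.24), and Fkbp10, a prolyl isomerase of collagen, had 290 against 985, at -1.63 (-1.82 to -1.44). Prostate secretory genes moved with the higher members, with 6 of 10 (60.0%) called higher, 0 lower, and a summed level of 36803 against 14098. Of the 10, 9 had at least 10 normalised counts in both libraries. The part of secretion in this list was not tested.

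Genes of propeptide removal and crosslinking were lower in 10 of 14 measured members (71.4%) and higher in 0, with a median of -2.23. The 13 with at least 10 normalised counts in both libraries had a median of -2.14. Lox, the lysyl oxidase that crosslinks fibrils, had 29 reads against 590, at -4.19 (-4.80 to -3.68). Adamts14, a propeptidase, had 15 against 303, at -4.16 (-5.06 to -3.46). Tgm2, a transglutaminase, had the most reads, 2840 against 41076, at -3.72 (-3.78 to -3.67). Adamts3 had 0 label-retaining reads against 22 and was at least 6.68-fold lower against a floor of 3 reads.

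Proteins that bind and arrange fibrils were also mostly lower, in 12 of 19 measured members (63.2%), with 2 higher (10.5%) and a median of -1.99. The 18 with at least 10 normalised counts in both libraries had a median of -1.83. Prelp, at -4.53 (-4.70 to -4.37), and Fmod, at -4.46 (-4.57 to -4.35), encode small proteoglycans of fibrils, and Dcn, the related decorin gene, had 4930 reads against 92262, at -4.09 (-4.13 to -4.05). Thbs1, an adhesive matrix protein and the list's most abundant member, was at -2.18 (-2.19 to -2.16). The higher members were Postn, the matrix protein periostin, with 7557 against 877, at 3.24 (3.14 to 3.34), and Lum, a small proteoglycan, with 169 against 64, at 1.53 (1.11 to 1.97).

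Partners of type IV collagen in the basement membrane included 16 lower (66.7%) and 1 higher of 24 members, with a median of -1.67. The laminin genes Lamc3, at -5.09 (-5.54 to -4.70), and Lama1, at -4.58 (-4.77 to -4.41), and the matrix gene Smoc2, at -4.57 (-4.81 to -4.35), were farthest apart. Nid2, which links laminin to type IV collagen, was the higher member, with 787 against 318, at 1.44 (1.25 to 1.63). Lama3 and Lamb3 are also in the list of basal cell markers.

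Receptors and uptake genes were lower in 5 of 11 measured members (45.5%) and higher in 0, with a median of -0.62. The 10 with at least 10 normalised counts in both libraries had a median of -0.49. Mrc2, an endocytic collagen receptor, had 34 reads against 662, at -4.13 (-4.69 to -3.65). Itga11, an integrin chain of fibroblasts, had 4 against 62, at -3.66 (-5.74 to -2.39), and was measured only through its non-retaining reads. Ddr2, a receptor kinase for fibrillar collagen, had 115 against 633, at -2.32 (-2.63 to -2.04). Its epithelial relative Ddr1 was near equality, with 6967 against 7244, at 0.08 (0.03 to 0.12). Itgb1, the shared beta chain and the most abundant member, was at -1.15 (-1.17 to -1.12).

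**Figure D4:**
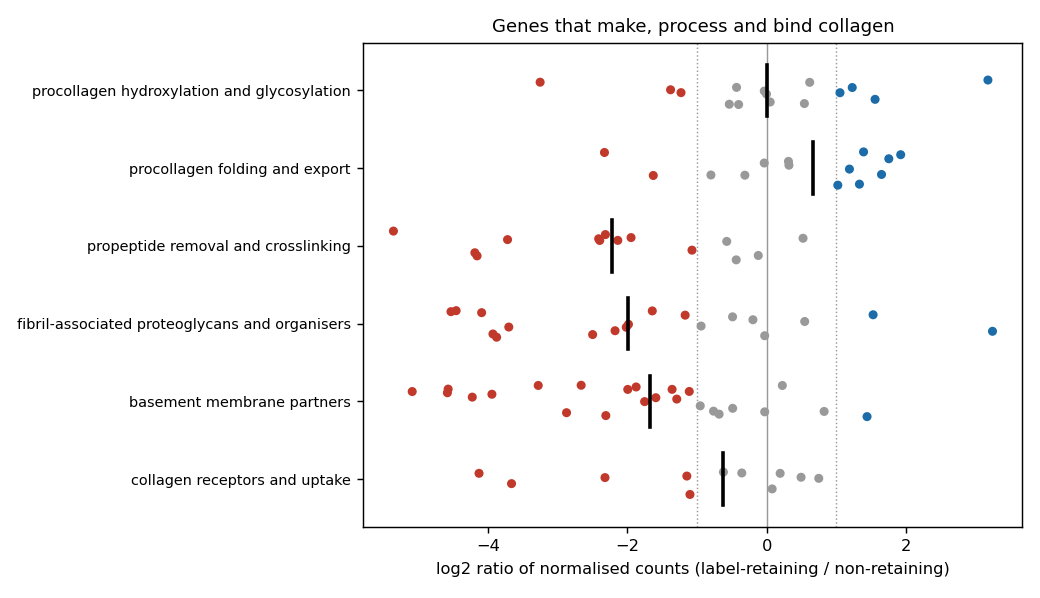
Log2 ratio (label-retaining over non-retaining) of each measured gene in the 6 lists of collagen production, assembly and binding. Blue points were called higher, red lower and grey neither, black bars are medians, and Adamts3, with 0 label-retaining reads, is drawn with a pseudocount of 0.5. Crosslinking genes have a median of -2.23 and folding and export genes one of 0.67.

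The labelled cell type was set beside lists of markers, which went different ways. Over all measured genes, 14.5% were called higher and 19.4% lower. Of 16 luminal epithelial markers, 7 were called higher (43.75%) and 0 lower, with a summed level of 10039 for label-retaining and 7007 for non-retaining cells. Krt8 had 148223 reads against 89295. Basal epithelial markers were lower in 16 of 17 measured members (94.1%) and higher in 0, with a summed level of 226 against 3452. Of the 17, 16 had at least 10 normalised counts in both libraries, and Krt5 had 962 reads against 28725. The 5 basement membrane and 2 transmembrane collagens called lower were lower in the same library as the basal markers, and the part of basal cells in that difference was not tested.

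Stromal and immune markers were lower in the label-retaining library as well. Fibroblast markers were lower in 10 of 16 measured members (62.5%), with a median of -2.53 and a summed level of 194 against 615. Lum and Sfrp1 were higher, 12.5% of the list against 14.5% of all measured genes. The 15 with at least 10 normalised counts in both libraries had a median of -1.98. Twist2, a mesenchymal transcription factor, stood at 18 reads against 852 and Pdgfra, a fibroblast receptor, at 66 against 1872. Smooth muscle markers were lower in 14 of 15 (summed level 54.8 against 529), with Tpm2 the farthest at -4.53 (-4.66 to -4.40). Endothelial and pericyte markers were lower in 12 of 16 (21.1 against 72.6), with the pericyte gene Kcnj8 at -4.41 (-5.05 to -3.88). Leukocyte markers were lower in 9 of 14 and higher in 2 (14.3%, near the share over all genes), at summed levels of 124 against 210. Of the 14, 12 had at least 10 normalised counts in both libraries, and Gzma had 0 label-retaining reads against 2234. No other marker of these lists that was measured had 0 reads in either library. The fibrillar genes called higher differed in direction from the medians of the fibroblast and smooth muscle lists, but not from Lum and Sfrp1. The part of fibroblasts or smooth muscle cells in the fibrillar ratios was not tested.

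Glial and neuronal markers, like the luminal and secretory lists, were more often called higher than lower. Of 12 glial and neuronal markers, 9 were called higher (75.0%, against 14.5% of all measured genes) and 1 lower, at a median of 1.81 and a summed level of 52.3 against 29.9. Cdh19, a cadherin of Schwann cell precursors, had 1829 reads against 224, at 3.16 (2.96 to 3.37). S100b, a glial calcium-binding protein, had 212 against 32, at 2.84 (2.32 to 3.45). Sox10, the transcription factor that defines peripheral glia, had 297 against 54, at 2.58 (2.17 to 3.04). Mbp, a myelin protein, had 6656 against 4430, at 0.72 (0.67 to 0.78). No member of the list was at 0 in either library. The part of glial, luminal or secretory cells in the ratios of the 10 collagens called higher was not tested.

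**Figure D5:**
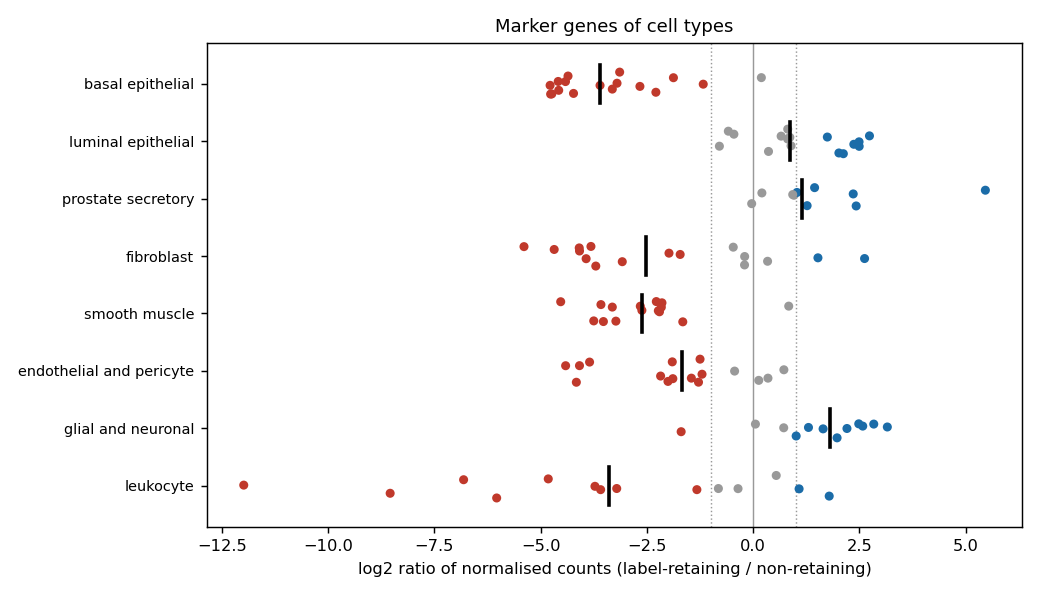
Log2 ratio (label-retaining over non-retaining) of each measured marker gene in the 8 cell type lists, with calls in colour (blue higher, red lower, grey neither) and medians as black bars. Gzma, with 0 label-retaining reads, is drawn with a pseudocount of 0.5. Basal, fibroblast and smooth muscle medians are -3.60, -2.53 and -2.62, and the glial and neuronal median is 1.81.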

How the data were processed

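Total RNA of 2 sorted populations went into libraries that keep strand (Illumina TruSeq), per the labels' protocols. The deposited values are a normalised signal, gene read counts that the authors divided by 1 size factor per library, as the values show: all values of a column are whole multiples of 1 step (100% within 1e-06 reads). Whole reads were recovered by dividing by the step. Per the submitters' processing notes, the build was mm10 and the tools, named without role or order, were Bowtie2 2.1.0, CASAVA 1.8.2, DESeq 1.16.0, HTSeq 0.6.0 and TopHat2 2.0.10. Neither annotation nor strand setting is given in the sources used here.

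Symbols, positions and union exon lengths came from GENCODE M21 (GRCm38), and 18634 of 18724 identifiers matched. Log2 ratios used a pseudocount of 0.5 normalised counts, and intervals are exact Clopper-Pearson intervals of the read share (SciPy 1.17.1). Levels are reads per kilobase of union exon per 1000000 reads of the table. Counts were simulated for the 17183 measured genes with counting error only, and 50 genes were changed at each fold and direction. The calls found 100% of genes changed 8-fold, 100% of those 3-fold higher and 92.0% of those 3-fold lower. No variation between animals or libraries was simulated, so these shares say nothing about it. TMM factors came from edgeR 4.0.16. Every collagen is given. From other lists the text names up to 3 called genes in each direction by interval bound and the most abundant; further genes were chosen after their values were seen. The members and lists were chosen with earlier results of these data known. A few genes of these lists are not reported here.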

Additional observations from a re-analysis of the deposited data

How the results depend on the processing

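Settings tried were the pseudocounts 0.1 and 5 and the scalings by total reads, median of ratios, TMM and the keratins Krt8 and Krt18. The 25 collagens called higher or lower kept their direction under each, but these settings could not have changed it. A call needs at least 2-fold, and the largest scaling shift was -0.76 on the log2 scale. A pseudocount cannot change the sign of a log2 ratio. No paired analysis was possible because each group had 1 library, which also left no replicate to leave out. Scaling by total reads lowered ratios by 0.20, left 8 collagens called higher (Col1a1 and Col6a3 lost the call) and gave medians of 0.81 (fibrillar), -3.50 (basement membrane), -0.64 (beaded) and -2.09 (anchoring fibril). Scaling on the keratins gave 5 collagens called higher and medians of 0.25 (fibrillar), -4.06 (basement membrane), -1.20 (beaded), -3.19 (short-chain network), -2.65 (anchoring fibril) and 0.15 (other). A minimum mean of 50 normalised counts left fewer genes and turned the beaded median to 0.62 (3 genes) and the FACIT median to 0.57 (5 genes), and left 1 other collagen, at 2.47. At a 4-fold threshold 4 collagens were called higher. With the length of the coding transcript in place of union exons, a choice made after seeing the data, the log2 of Col1a1 over Col1a2 per length turned from 0.29 to -0.78 (label-retaining) and from 0.17 to -0.90 (non-retaining), and that of Col5a1 over Col5a2 from 0.21 to -0.31 (label-retaining). The order of these chains is thus not settled by the data. With that length Col20a1 also fell below Col3a1 in the label-retaining library, at 18.7 against 20.1. Depth limits Col24a1, Col13a1, Col25a1, Col6a4, Col2a1 and Col19a1, with 1 to 4 label-retaining reads.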
